A study of Drosophila melanogaster with 4 samples.

Results

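The G2 and mitosis genes described here are a list of 43 Drosophila melanogaster genes, listed by gene name. Most drive, restrain or carry out steps from G2 through mitosis to cytokinesis. Through the platform annotation 31 of the 43 had a probe set carrying that gene alone, out of 10843 genes so represented, and each gene was read from the probe set with the highest mean log2 signal. The other 12 were not analysed here: CycA, Cdk1, stg, wee (now Wee1), Myt1, dap, polo, aurA, BubR1, pav, Klp3A and asp. The measured members therefore lack the mitotic kinase Cdk1 itself and stg, which encodes the Cdc25 phosphatase that activates it in somatic cells.

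The RNA came from Kc167 cells, a female line of embryonic origin kept in serum-free medium. All dishes stood for 72 h and rested 90 min after a mock treatment or irradiation. Control cells had no hormone and no irradiation, ecdysone cells had 10 µM muristerone A, a plant ecdysteroid that activates the ecdysone receptor, irradiated cells had 280 Gy of gamma rays, and combined cells had both. Each of the 4 conditions was measured on 1 Affymetrix DrosGenome1 array, so no value has a replicate.

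Entry into mitosis is driven by Cdk1 bound to A-type and B-type cyclins, which Cdc25 phosphatases switch on and the kinases Wee1 and Myt1 hold off. Kinetochores that lack spindle attachment keep the spindle checkpoint active, which restrains the anaphase-promoting complex (APC/C). Once released, the APC/C with its activators marks cyclin B and securin for destruction, separase opens cohesin, and the cell divides. Many transcripts of this machinery are made mainly in G2 and mitosis, so in a culture their level also follows how many cells are cycling. From RNA of a whole culture, fewer cells in G2 or mitosis and less RNA per cell cannot be told apart.

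The deposited signals have a common trimmed mean, and median signals ran from 113.7 (combined) to 124.95 units (ecdysone). Of 10 measured plasmatocyte and Kc167 lineage markers, srp, Hml, Pxn and ush lay above a floor of 119.4 units, the median of all signals, on all 4 arrays, and crq on none. Their summed signal was 2329 in control, 2698 in irradiated, 6434 in ecdysone and 9251 in combined cells. The higher sums with the hormone came from Pxn, Col4a1 and vkg, with Pxn at 598 in control and 3091 with ecdysone, while Hml was lower on both hormone arrays, at 284 against 922 and 240.4 against 1110 after irradiation, and srp stayed between 177 and 292. Among 3 measured neuron and 3 muscle markers none passed the floor on all 4 arrays, and among 3 germline markers aub did and bam passed it on none. The log2 difference between the 3′ and 5′ probe sets of the eIF-4a control transcript was 0.01 in control cells, 0.19 with ecdysone, 0.58 after irradiation and -0.34 with both, and that of actin was also highest on the irradiated array, at 0.93. For GAPDH it was 0.52, 0.82, 1.49 and 1.81 in the same order, highest on the combined array, where the other transcripts had their lowest values. The part of these shifts in the results below was not tested. All arrays were of 1 lot, washed on 1 station and scanned on 1 day. The irradiated and combined arrays used modules 1 and 2 and were scanned first, and the others used modules 3 and 4, so wash module and scan order cannot be told apart from irradiation.

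Low signals were raised to the floor before log2 differences were taken. Each treatment was read from separate comparisons without a common array. The treatments rest on the same 4 arrays, so the differences of one are not separate observations from those of the other. Ecdysone was compared with control and combined with irradiated for the hormone, and irradiated with control and combined with ecdysone for irradiation. Differences are given in that order, treated minus untreated, and a fold is the mean of both pairs, written "at least" where the lower level lay at the floor. Of the 31 members 10 were above the floor on all 4 arrays, 18 on some and 3 on none. A limma fit of both treatments on unfloored signals, adjusted over 5981 probe sets, tested the 17 members whose mean log2 signal passed the floor. Its estimates therefore differ from the mean of the floored pairs where a signal lay below the floor.

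**Figure D1:**
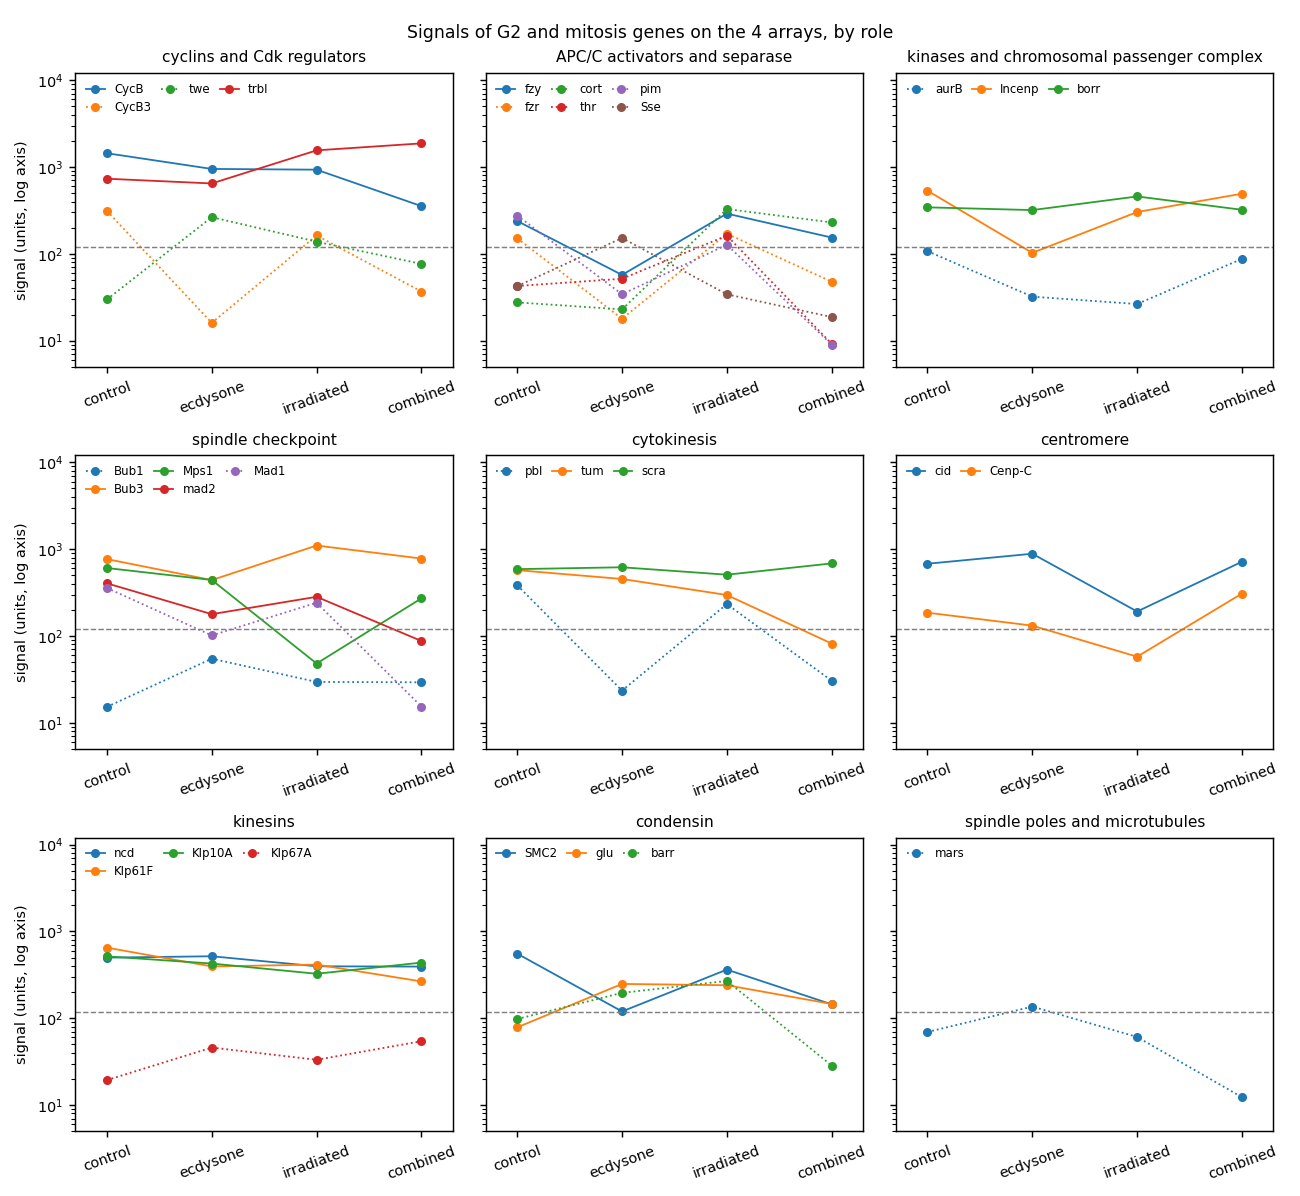
Signal of each measured member (log axis, units) on the 4 arrays, in panels by role, with 1 point per array. Solid lines mark the 17 members tested with limma, dotted lines the others, and the dashed line the floor of 119.4 units. The spindle checkpoint genes mad2 and Mad1 lie lower on the ecdysone and combined arrays, and trbl lies higher on the irradiated and combined arrays.

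Ecdysone was accompanied by lower signals in more members than higher ones, without any member passing the test. In both pairs 13 of 31 members were lower and 2 were higher, where 15.2% of all genes were lower and 14.3% higher. Among the 17 tested members 8 were lower and 2 higher in both pairs, against 26.1% and 25.0% of genes with a mean above the floor. The members at least 2-fold lower in both pairs were SMC2, mad2 and Mad1, 3 of 31 against 1.82% of all genes, and no member was 2-fold higher, against 2.22%. Of genes with a mean above the floor, a set that holds SMC2 and mad2 but not Mad1, 3.32% were 2-fold lower and 4.37% higher. Mad1 was just inside this rule, with -1.02 in its smaller pair, and pbl and fzy just outside it, with -0.96 and -0.92. At 1.5-fold, 7 members were lower in both pairs and none higher, against 5.28% and 4.99% of all genes. In limma 0 of 17 passed, where 1.99% of probe sets did, and the smallest adjusted p was 0.315. At an unadjusted p under 0.05 there were 3 members, CycB, SMC2 and cid, against 9.76% of probe sets, and cid was the higher of these.

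The median ecdysone difference was -0.28 over the 28 members above the floor on at least 1 array, against -0.02 for all such genes. It was -0.23 over all 31 measured members, and -0.31 over the 17 tested, against 0.00 and -0.02 for the matching sets of all genes. In the unirradiated pair the 28 members had a median of -0.34 and in the irradiated pair -0.47, where all genes were at 0.00 in both.

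With irradiation the members lay in both directions. In both pairs 7 of 31 were lower and 5 higher, against 14.2% and 13.8% of all genes. A single member, trbl, was at least 2-fold higher in both pairs, against 1.68% of all genes, and none was 2-fold lower, against 1.41%. At 1.5-fold, 2 were higher (trbl and cort) and 3 lower (CycB, Mps1 and tum), against 4.45% and 4.51%. In limma 0 of 17 passed, where 0.485% of probe sets did, with 5 members at an unadjusted p under 0.05 (CycB, trbl, Mps1, tum and cid) against 6.87% of probe sets. The median difference of the 28 members was -0.17 against -0.02 for all such genes, with -0.42 in the pair without ecdysone and 0.00 in the pair with it.

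**Figure D2:**
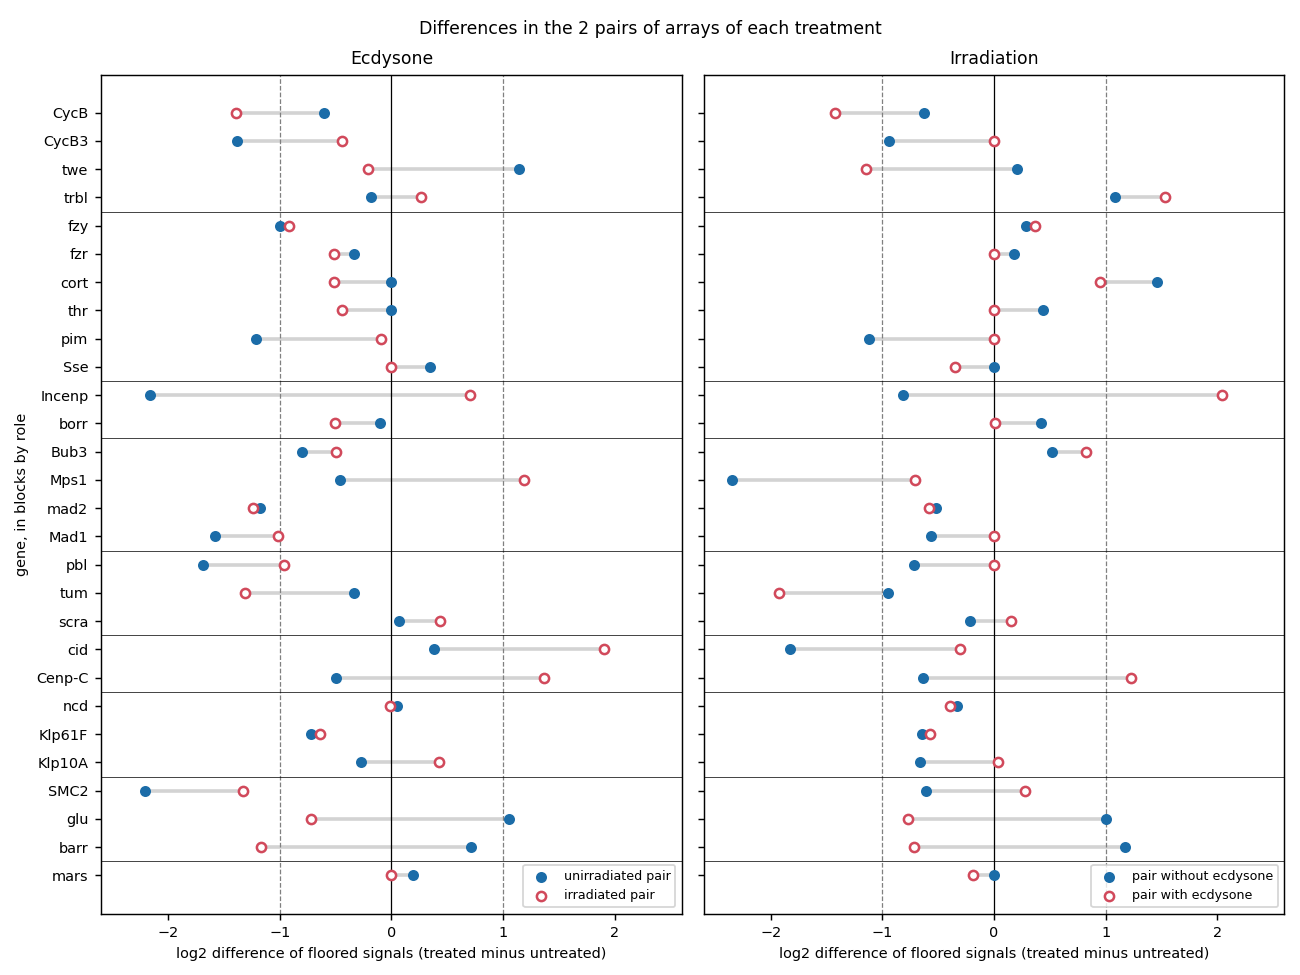
Log2 difference of floored signals (x axis) for the 28 members above the floor on at least 1 array (y axis, in blocks by role), for ecdysone on the left and irradiation on the right. Filled points are the pair without the other treatment, open points the pair with it, and dashed lines mark 2-fold. SMC2, mad2 and Mad1 lie beyond the lower dashed line with both points for ecdysone, and trbl beyond the upper for irradiation.

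Of the cyclins and Cdk regulators 4 were measured and 2 tested, and neither of these, CycB and trbl, passed limma. CycB, which encodes the B-type cyclin partner of Cdk1, had 1439 units in control cells, 949 with ecdysone, 930.4 after irradiation and 354 with both. It was highest without treatment, lower with either agent and lowest with both. The single control array and the single combined array enter the differences of both agents. The ecdysone differences were -0.60 and -1.39, with a limma estimate of -0.997 (SE 0.39, adjusted p = 0.315). For irradiation they were -0.63 and -1.42, with an estimate of -1.03 (SE 0.39, adjusted p = 0.474). CycB3, the other measured B-type cyclin gene, had 311 units in control cells, 16.0 with ecdysone, 163 after irradiation and 36.8 with both. Both arrays with the hormone lay below the floor and both without it above, and its mean was too low for the test.

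The tribbles gene trbl encodes a pseudokinase that in Drosophila promotes the destruction of the Cdc25 phosphatase String and so delays mitosis. Its signal was 732 in control cells, 646 with ecdysone, 1553 after irradiation and 1869 with both. Both irradiated cultures lay above both unirradiated ones, 2.48-fold on average, with differences of 1.08 and 1.53. The limma estimate was 1.31 (SE 0.35), and its adjusted p of 0.0942 missed the threshold of 0.05. Scaling the arrays to a common median gave 1.39 with an adjusted p of 0.0349, and over all alternatives tried the smallest adjusted p of any member for irradiation ranged from 0.0349 to 0.846. Ecdysone differences of trbl were small, -0.18 and 0.27. The second Cdc25 gene, twe, which acts in meiosis, had 29.8, 264, 138 and 76.5 units in control, ecdysone, irradiated and combined cells, with ecdysone differences of 1.15 and -0.21 that had opposite signs.

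Genes of the APC/C activators gave signals on both sides of the floor. For fzy, which encodes the Cdc20 protein that triggers anaphase, the signal was 239 in control cells, 57.1 with ecdysone, 290.3 after irradiation and 154 with both. The ecdysone differences were -1.0 and -0.92, and the limma estimate on unfloored signals was -1.49 (SE 1.15, adjusted p = 0.755). fzr, which encodes the Cdh1 activator that acts late in mitosis and in G1, had 151, 17.9, 170.4 and 47.7 units in the same order of arrays. As for fzy, each culture with the hormone lay below its partner without it. cort, an activator known from female meiosis, had 27.6 and 22.9 units in control and ecdysone cells but 327 and 229.9 in irradiated and combined cells. Its irradiation differences of 1.46 and 0.95 were past 2-fold in the pair without ecdysone and just short of it in the other, and it was too weak for the test.

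Securin and separase genes were not tested for the same reason. pim, the Drosophila securin gene, had 276 units in control cells, 34.2 with ecdysone, 127 after irradiation and 9.0 with both. The control was the highest and the hormone arrays lay under the floor, so the floored ecdysone differences were -1.21 and -0.09. thr, which encodes a separase partner, passed the floor only on the irradiated array at 162 units, and the separase gene Sse only on the ecdysone array at 152 units. Over the 6 genes of APC/C activation and separase the median ecdysone difference was -0.34 and that of irradiation 0.15.

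Of the kinase and chromosomal passenger genes, Incenp, aurB and borr were measured. The passenger complex carries Aurora B to centromeres and later to the midzone. Incenp, its scaffold, had 533 units in control cells, 103 with ecdysone, 303 after irradiation and 492 with both. Its ecdysone differences of -2.16 and 0.70 had opposite signs, as did those of irradiation, -0.81 and 2.04. borr, the borealin gene, had 343, 319, 458 and 321 units in the same order of arrays, with ecdysone differences of -0.10 and -0.51, while its weaker probe set lay below the floor on all arrays at 51.1 to 91.0 units. aurB, the kinase gene itself, lay under the floor on every array, from 26.4 to 107 units.

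The spindle checkpoint had the lowest ecdysone median of the groups with at least 4 measured genes. It was -0.93 over the 4 members above the floor on at least 1 array and -0.65 over the 5 measured. The group was not uniform, as Mps1 had a mean ecdysone difference of 0.36. Cytokinesis, with 3 measured genes all above the floor on at least 1 array, had -0.83, lower than the checkpoint over all measured genes. mad2, which encodes the checkpoint protein that binds and holds back Cdc20, had 404 units in control cells, 178 with ecdysone, 283 after irradiation and 87.6 with both. Both cultures with the hormone lay below both without it. The differences were -1.18 and -1.24, at least 2.32-fold, with a limma estimate of -1.44 (SE 0.94, adjusted p = 0.689). Mad1, which recruits Mad2 to kinetochores, had 357 units in control cells, 102 with ecdysone, 242 after irradiation and 15.4 with both. It showed the same order of arrays as mad2, with differences of -1.58 and -1.02, at least 2.46-fold, but was too weak for the test.

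Bub3, another checkpoint gene, had 768 units in control cells, 441 with ecdysone, 1101 after irradiation and 779.7 with both. Within each pair the hormone array was lower, by -0.80 and -0.50 (limma estimate -0.65, SE 0.41, adjusted p = 0.663), and the irradiated array higher, by 0.52 and 0.82. Mps1, the kinase gene at the head of the checkpoint, instead had 607 units in control cells, 442 with ecdysone, 48.2 after irradiation and 271 with both. The irradiated array alone lay below the floor, and the irradiation differences were -2.35 and -0.70 (limma estimate -2.18, SE 0.87, adjusted p = 0.539). Ecdysone differences of Mps1, -0.46 and 1.19, had opposite signs. Bub1 was under the floor on all arrays, from 15.3 to 54.8 units.

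**Figure D3:**
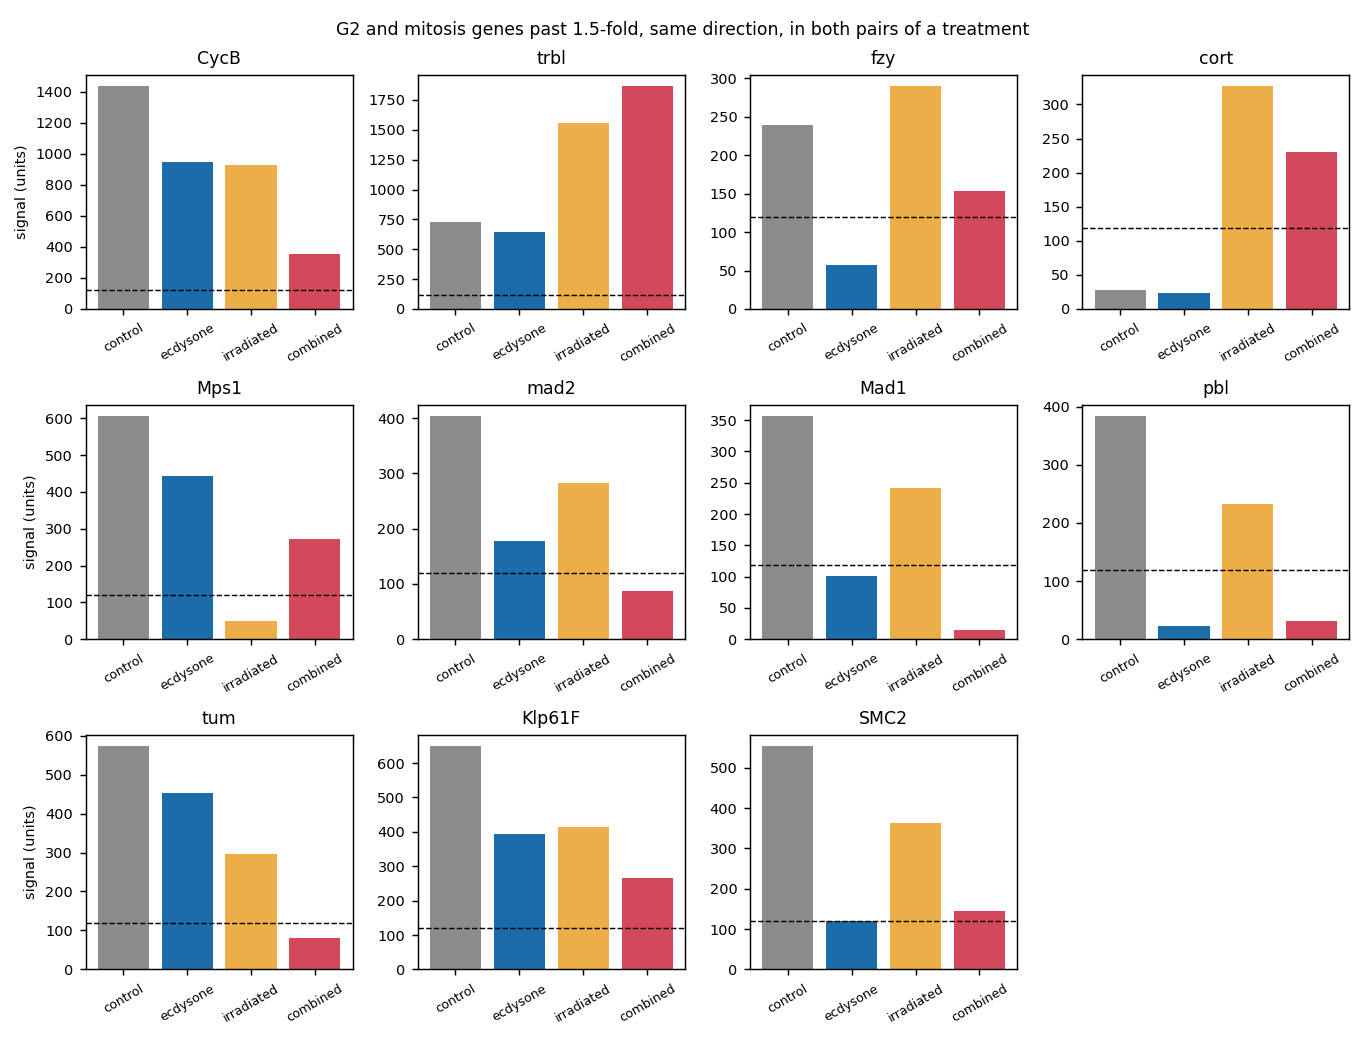
Signal (units, linear axis from 0) on the 4 arrays for the 11 members lower in both pairs, or higher in both, by at least 1.5-fold for ecdysone or for irradiation, 1 bar per array, with the floor of 119.4 units dashed. Vertical scales differ between panels. CycB steps down from 1439 in control to 354 in combined cells, and cort is above the floor on the irradiated and combined arrays only.

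Genes of cytokinesis did not move as a block. pbl, a gene needed to form the contractile ring, had 384 units in control cells, 23.5 with ecdysone, 233 after irradiation and 30.5 with both. Both hormone arrays lay below the floor and the others above it, and the differences of -1.69 and -0.96 put it just outside the 2-fold rule. tum, which encodes a Rac GTPase-activating protein of the central spindle, had 573 units in control cells, 454 with ecdysone, 297 after irradiation and 81.8 with both. Its order of arrays was control, ecdysone, irradiated, combined, with irradiation differences of -0.95 and -1.93 (limma estimate -1.71, SE 0.75, adjusted p = 0.653). scra, the anillin gene, had 589, 619, 508 and 685 units in the same order of arrays, with ecdysone differences of 0.07 and 0.43.

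The centromere genes cid and Cenp-C were lowest on the irradiated array, but Cenp-C was highest on the combined array. cid, which encodes the centromeric histone H3 variant, had 679 units in control cells, 886 with ecdysone, 191 after irradiation and 717 with both. The ecdysone differences were 0.38 and 1.91, with a limma estimate of 1.14 (SE 0.50, adjusted p = 0.413), and those of irradiation were -1.83 and -0.30. Cenp-C, which binds that chromatin, had 186, 132, 57.8 and 308 units in control, ecdysone, irradiated and combined cells. The irradiated array was again the lowest, below the floor. Ecdysone differences of Cenp-C, -0.50 and 1.37, had opposite signs, as did those of irradiation, -0.64 and 1.23. Of the weaker Cenp-C probe sets, the irradiated array had the lowest values, at 28.5 and 6.20 units, and only the combined array of the latter passed the floor, at 138 units. In the former the ecdysone array was almost as low, at 28.8 units. With control and irradiated arrays both under the floor, these probe sets cannot show whether Cenp-C was lower after irradiation.

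The 3 kinesin genes above the floor stayed within 2-fold in every pair. Klp61F, the kinesin-5 gene whose motor pushes spindle poles apart, had 649 units in control cells, 395 with ecdysone, 414 after irradiation and 265 with both. Like CycB it was highest in control and lowest with both agents. Its ecdysone differences were -0.72 and -0.64 (limma estimate -0.68, SE 0.57, adjusted p = 0.780) and those of irradiation -0.65 and -0.57. ncd, a minus-end motor gene, had 498, 517, 396 and 393 units in control, ecdysone, irradiated and combined cells, and its ecdysone differences of 0.05 and -0.01 were the smallest of the tested members. Klp10A, a microtubule depolymerase gene, had 515, 426, 325 and 437 units, with ecdysone differences of -0.27 and 0.43. Klp67A was under the floor on all arrays, from 19.4 to 54.3 units. The 3 kinesins above the floor had a median of 0.02 for ecdysone and -0.36 for irradiation.

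Condensin, the complex that compacts mitotic chromosomes, was measured through 3 subunits that did not follow each other. SMC2 had 554 units in control cells, 119.6 with ecdysone, 363 after irradiation and 144 with both. Both hormone arrays lay below both others, with differences of -2.21 and -1.33, a mean of 3.41-fold (limma estimate -1.77, SE 0.83, adjusted p = 0.475). With a floor at the 60th percentile the mean ecdysone difference of SMC2 was -1.38. glu, the gene of its partner SMC4, had 78.4 units in control cells, 248 with ecdysone, 239.7 after irradiation and 146 with both. barr, which encodes the subunit that bridges the SMC heads, had 97.9, 196, 269 and 28.5 units in the same order. For glu and barr each agent alone was higher than control while the combination was lower than either, so their ecdysone differences, 1.06 and -0.72 for glu and 0.71 and -1.17 for barr, had opposite signs. mars, a spindle microtubule gene, passed the floor only on the ecdysone array, at 136 units.

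The members departed from additive effects about as often as all genes. The departure from additivity, the ecdysone difference in irradiated cells minus that in unirradiated cells, was at least 1.5 in size for 6 of 31 members, against 14.7% of all genes. It was 2.86 for Incenp, 1.86 for Cenp-C, 1.64 for Mps1 and 1.52 for cid, and -1.88 for barr and -1.77 for glu. The pairs of a treatment opposed each other by at least 1.5-fold each way in 3 members for ecdysone and 4 for irradiation, against 7.42% and 7.63% of all genes. Without replicate arrays the departure could not be tested, and limma counts it as noise. Among the 17 tested members the control array held the highest signal for 8, against 26.6% of genes with a mean above the floor, and the lowest for 1 (glu), against 25.0%. The lowest signal was on the ecdysone array for 6 members, on the irradiated array for 5 and on the combined array for 5, against 26.3%, 24.3% and 24.4% of such genes.

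**Figure D4:**
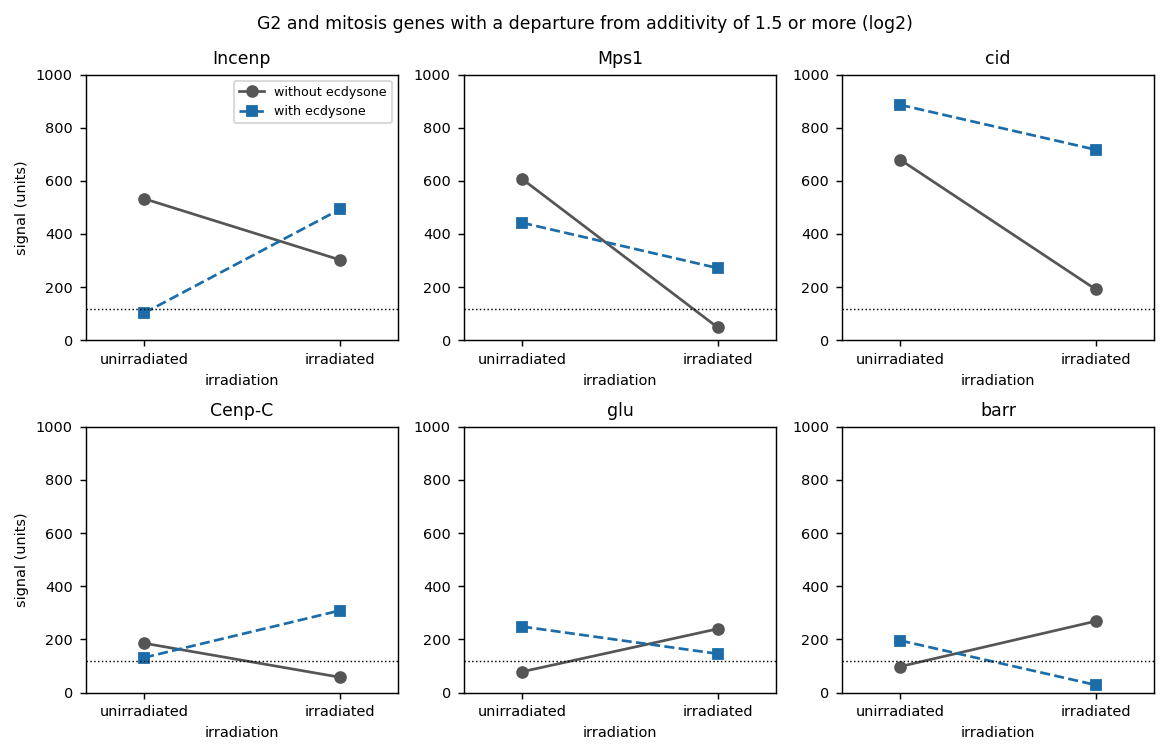
Signal (units, linear axis) without and with irradiation (x axis) for the 6 members with a departure from additivity of at least 1.5 (log2), 1 array per point, without ecdysone (circles, solid lines) and with it (squares, dashed lines), and the floor of 119.4 units dotted. For Incenp the lines cross, from 533 and 103 units unirradiated to 303 and 492 units irradiated.

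Other mitosis genes were taken from a list of 97 that shares no gene with the members, of which 76 were measured and 30 tested. None passed limma for either treatment, where 1.99% and 0.485% of all probe sets did. For ecdysone the smallest adjusted p was 0.164, for ball at -0.64 and -2.27, and 5 of 30 genes had an unadjusted p under 0.05, against 9.76% of probe sets. For irradiation the smallest was 0.697 and 1 gene had an unadjusted p under 0.05, against 6.87%. The tested genes had a median ecdysone difference of -0.34, being -0.50 without irradiation and -0.51 with it. For all genes with a mean above the floor these medians were -0.02, 0.00 and 0.00. Over the 62 listed genes above the floor on at least 1 array the median was -0.14, being 0.00 without irradiation and -0.004 with it. Over all 76 measured genes of the list it was 0.00. At least 2-fold lower with ecdysone in both pairs were 4 of 76, against 1.82% of all genes, and none was 2-fold higher, against 2.22%. feo, which encodes the midzone microtubule bundler related to PRC1, had 826 units in control cells, 359 with ecdysone, 1077 after irradiation and 471 with both, with nearly equal differences of -1.20 and -1.19. The augmin gene msd5 was at -1.93 and -2.21, gammaTub37C, a gamma-tubulin gene known from the female germline, at -1.08 and -2.17, and san, which encodes an acetyltransferase needed for sister chromatid cohesion, at -1.14 and -1.18. The other probe set of gammaTub37C lay below the floor on all arrays, from 50.4 to 93.1 units. With irradiation 2 of 76 were at least 2-fold higher in both pairs and 1 lower, near the 1.68% and 1.41% of all genes. Cdc23, an APC/C subunit gene, was at 1.52 and 1.44 and the kinesin gene Klp38B at 1.24 and 1.53, while asl, a centriole gene, was at -1.26 and -1.57.

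DNA replication genes served for comparison. Of 44 listed 38 were measured and 27 tested, and their median ecdysone difference was -0.57 over the tested genes, against -0.31 for the tested G2 and mitosis members. In the replication list 2 of 38 genes were at least 2-fold lower in both ecdysone pairs, Mcm2 and PCNA, against 1.82% of all genes. PCNA passed limma (adjusted p = 0.0113), 1 of 27 tested against 1.99% of probe sets. The difference between these lists was not tested.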

How the data were processed

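The deposited values are signal intensities made by the authors with MAS5, per the submitters' processing notes, on 4 Affymetrix arrays, 1 per condition. Array handling was read from the experiment files, whose other entries are text, per the file headers. Of 13966 probe sets besides 44 controls, 12443 carried 1 gene symbol, 327 several and 1196 none in the platform annotation, and current names of 12394 came from RefSeq (Release 6 plus ISO1 MT) by gene identifier. Arrays were scaled to a common trimmed mean leaving out 2% at each end, which changed none by over 0.0667%. For the pair differences, signals were floored at the median signal. The additive fit used unfloored signals and limma 3.58.1 in R 4.3.3, with a variance prior following intensity and Benjamini-Hochberg adjustment over 5981 probe sets. It leaves 1 residual degree of freedom against a median of 29.4 from the prior, so its SE and p-values mostly follow signal intensity and do not measure the spread between cultures. Present and absent calls were not used here. The alternatives were other scalings, floors, fold thresholds, probe set rules and priors. Every tested member was given on all 4 arrays. Of the others, those were given in full that passed 2-fold in both pairs or departed most from additivity, and further ones were chosen after their values were seen. In the wider list genes past 2-fold in both pairs or past limma were to be named, and ball was added afterwards. The members and lists were chosen with earlier results of these data known. No sequences are given.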

Additional observations from a re-analysis of the deposited data

Results flagged for a closer look

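Members with opposite differences in the pairs of a treatment, by at least 1.5-fold each way, were about as frequent as among all genes. For ecdysone there were 3 of 31 members, against 7.42% of all genes: Incenp at -2.16 without and 0.70 with irradiation, glu at 1.06 and -0.72, and barr at 0.71 and -1.17. For irradiation they were 4 of 31, against 7.63%: Incenp at -0.81 without and 2.04 with ecdysone, Cenp-C at -0.64 and 1.23, glu at 1.01 and -0.77, and barr at 1.17 and -0.71. Both sets rest on the same 4 arrays, so they are not separate observations. With 1 array per condition the difference between the pairs was not tested.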

How the results depend on the processing

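No paired analysis was possible because each condition has 1 array and so no replicate numbers to match across conditions. The pairs of arrays behind each treatment come from the crossed design. No member passed limma for ecdysone under any filter, scaling, probe set rule or prior, and for irradiation 1 did, trbl, with scaling to a common median. With the same variance prior for all intensities no probe set at all passed for either treatment. Over all probe sets the 119 calls for ecdysone and 29 for irradiation became 33 and 0 with the mean over probe sets, 56 and 4 without a filter, and 83 and 6 with quantile normalization, while irradiation had 47 with median scaling. Members at least 2-fold lower with ecdysone in both pairs numbered 3, and 7 with a floor at the 25th percentile (41.7 units), 7 with no floor, 7 at 1.5-fold and 1 (SMC2) with a floor at the 60th percentile (173 units). All genes gave 5.31%, 7.27%, 5.28% and 0.959% under these settings. CycB3, fzr, pim and pbl joined with the lower floor and without one. For irradiation the 2-fold higher count of 1 became 2, with cort, with median scaling, the lower floor, no floor or 1.5-fold, where 2.02%, 4.5%, 6.52% and 4.45% of all genes did so. The lower count of 0 became 1 (pim) with no floor, against 7.06%, and 3 at 1.5-fold (CycB, Mps1, tum), against 4.51%. The ecdysone median of -0.28 was -0.67 with no floor and -0.47 in the irradiated pair alone, and stayed from -0.34 to -0.23 under the other alternatives. That of irradiation lay between -0.42 and 0.00. Single members' differences under other scalings and floors moved by more than the SD of the pairs in 18 of 175 cases. The sign of the mean difference changed in 5 cases, all of members not past 2-fold in both pairs of the treatment concerned. For irradiation, Cenp-C went from 0.30 to -0.23 with the lower floor or none, and glu from 0.12 to -0.03 with the higher floor. Also for irradiation, scra went from -0.03 to 0.05 with median scaling. For ecdysone, trbl went from 0.04 to -0.01 with quantile normalization. Low signal limits what could be shown: 14 of the 31 measured members were too weak for the test.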
